A study of Mus musculus with 8 samples.

Results

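H/ACA small nucleolar RNAs (snoRNAs), small Cajal body RNAs (scaRNAs) and the genes that carry snoRNAs in their introns were followed in small RNA libraries of mouse sperm. The members were the features of the deposited count table whose symbol starts with Snora, Scarna or Snhg, the exons and introns of Gas5, and the introns of Rbmx. Counts of a gene's exons were summed, and so were those of its introns. This gave 79 members of 63 symbols, out of 625497 features with counts. They were 36 H/ACA snoRNAs, 9 scaRNAs, 17 host genes counted over exons, 16 host genes counted over introns, and the Rbmx introns. The 4 EtOH-Cessation libraries and 4 Control-Cessation libraries came from spermatozoa of C57BL/6J mice, labelled as mature sperm. Both groups carry the word cessation, and the series title places them after the end of alcohol exposure, so the comparison asks what differed once alcohol had been stopped. The labels give no dose, age or number of animals, and do not say whether a library is a separate animal, so p-values measure the spread between these libraries. The design text names caput epididymis instead of sperm.

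The EtOH libraries held 6648798, 3116421, 6805989 and 5701404 counts, and the control libraries 4356786, 4210785, 4341914 and 4768713. Members took 0.191% to 0.562% of the counts in EtOH libraries and 0.313% to 0.513% in control libraries. EtOH library 2 stood apart from the rest in depth, exon share and first principal component. It was the shallowest, 30.5% of its counts lay in exons against 7.07% to 10.4% in the other 7 libraries, and it lay at -149 on the first principal component against -43.4 to 74.7. Calls of described members that turned without EtOH library 2 are given with both values. EtOH library 4 differed in another way. It held 54.99% of its counts in structural RNA, against 27.9% to 37.5% in the other 7 libraries, and the lowest share of members, 0.191%. The groups differed in make-up too, with 6.96% to 10.1% of counts in microRNAs in EtOH libraries and 16.8% to 27.7% in control libraries. The part of this microRNA difference in the results below was not tested. All 10 sperm and late spermatid genes checked (protamines, transition proteins and others) had counts, and their summed level was 199 to 454 CPM (counts scaled to a common library size with edgeR's TMM factors) in EtOH libraries and 449 to 554 CPM in control libraries. The summed level of 12 epididymal epithelium genes was 811 to 12340 CPM in EtOH libraries, highest in EtOH library 2, and 381 to 600 CPM in control libraries. Of these 12, 11 had counts, and Crisp1 and Cd52 made up most of the sum in every library. Defb48, Lcn5, Lcn8, Lcn9, Cst8 and Cst11 had 0 to 1.86 CPM. Spint4 had no counts under that name, and whether it was at 0 or missing from the annotation cannot be told. The part of this epithelial RNA in the results below was not tested.

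H/ACA snoRNAs fold into a pair of hairpins and end in an ACA trinucleotide box near the 3′ end. With dyskerin, Nop10, Nhp2 and Gar1 they guide the conversion of uridine to pseudouridine in ribosomal RNA. C/D snoRNAs carry other boxes and guide 2′-O-methylation. ScaRNAs do either or both on spliceosomal RNAs in Cajal bodies, nuclear compartments where small nuclear ribonucleoproteins mature. Most mammalian snoRNAs are cut out of introns after splicing. Snhg genes and Gas5 are hosts whose spliced RNA mostly codes for no protein and is often degraded by nonsense-mediated decay.

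Sequences in GENCODE M21 (GRCm38) show what the names stand for. Of the 36 Snora members, 30 (83.3%) had ACA exactly 3 bases before the 3′ end, against 2 of 9 Scarna members, 0 of 99 genes named Snord and 13 of 1383 small nuclear RNA genes (0.94%). This is a description of letters and not of function. Of the 5 H/ACA snoRNAs printed here, Snora21 passed the test below, Snora16a, Snora20 and Snora81 were among the abundant ones, and Snora44 lies beside Snora16a in the same host. Capitals mark the ACA box, and sequences without capitals have no ACA in the last 20 bases. Snora21 lies in an intron of Rpl23 (chromosome 11, minus strand), Snora16a and Snora44 in introns of Snhg12 (chromosome 4, plus strand), Snora20 in Tcp1 (chromosome 17, plus strand) and Snora81 in Eif4a2 (chromosome 16, plus strand).
Snora21: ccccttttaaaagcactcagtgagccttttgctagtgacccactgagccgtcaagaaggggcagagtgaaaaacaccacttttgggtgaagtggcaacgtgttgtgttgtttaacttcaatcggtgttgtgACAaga
Snora16a: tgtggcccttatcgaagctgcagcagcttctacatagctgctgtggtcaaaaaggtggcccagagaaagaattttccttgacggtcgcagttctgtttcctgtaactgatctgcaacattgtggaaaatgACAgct
Snora44: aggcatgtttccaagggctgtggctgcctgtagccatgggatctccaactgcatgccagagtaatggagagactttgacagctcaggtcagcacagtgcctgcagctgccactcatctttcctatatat
Snora20: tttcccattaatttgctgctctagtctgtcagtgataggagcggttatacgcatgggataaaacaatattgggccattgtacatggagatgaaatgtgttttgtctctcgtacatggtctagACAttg
Snora81: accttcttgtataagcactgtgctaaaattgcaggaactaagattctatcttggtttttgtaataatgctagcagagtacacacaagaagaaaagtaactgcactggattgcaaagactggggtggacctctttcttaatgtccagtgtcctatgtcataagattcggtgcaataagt

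Most members tested had a lower fitted level in EtOH libraries, but few passed the test. The test called 4 members, all lower: the introns of Rbmx, Scarna17, the introns of Snhg6 and Snora21. No member was called higher. The test was edgeR's quasi-likelihood F test on the whole table, with Benjamini-Hochberg adjustment over all 13808 features tested and a threshold of 0.05. Over all features, 0.84% were called lower and 4.71% higher, 5.55% in either direction. DESeq2, run as an alternative, called 8 members lower and 0 higher, against 4.89% of all features called lower. The 4 calls sit at the edge of the threshold, since all 4 have the adjusted p of 0.0489 that 629 features share. At an unadjusted p below 0.05, 15 members were lower and 1 was higher, against 7.24% and 21.9% of all features.

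Of the 79 members, 37 had enough counts to be tested and 42 did not, with totals of 1 to 100 counts over the 8 libraries. A member that passed this filter through one group alone had to differ, so counts over the 37 describe them and nothing more. The fitted log2 fold change (EtOH over control) was below 0 in 30 of 37 (26 when scaled by library size alone, 23 by piRNA cluster totals), against 48.7% of all features, and its median was -0.86, against 0.03 over all features. In 8 of the 37 every EtOH library lay below every control library, against 5.77% of all features, and in 0 every EtOH library lay above, against 12.4%. Exon features, the type to which all Snora and Scarna rows belong, had a median of 0.86, and intron features one of -0.33. In bulk RNA, fewer cells of a type and less RNA per cell cannot be told apart.

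The count of calls moved with single libraries. Without EtOH library 2, 18 members were called lower and 0 higher, against 1.18% of all features called lower in the same fit, and all 37 tested members had a log2 fold change below 0 with a median of -1.50. This fit kept control library 2, which was above the mean of the other controls in 27 of 28 tested H/ACA snoRNAs and scaRNAs. No fit left out library 2 of both groups. Without EtOH library 3 there were 5 lower and 1 higher, against 599 lower and 2361 higher of all 14785 features in that fit. Leaving out EtOH library 1, EtOH library 4 or any 1 control library left 0 member calls. No member was called by limma voom, with 18 lower at an unadjusted p below 0.05, nor by edgeR with median-of-ratios scaling (13 lower at that level), library size alone (5 lower) or piRNA cluster totals (3 lower). Of all 13808 features, 1208, 1242, 516 and 396 were lower at that level in these fits, in the same order.

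**Figure D1:**
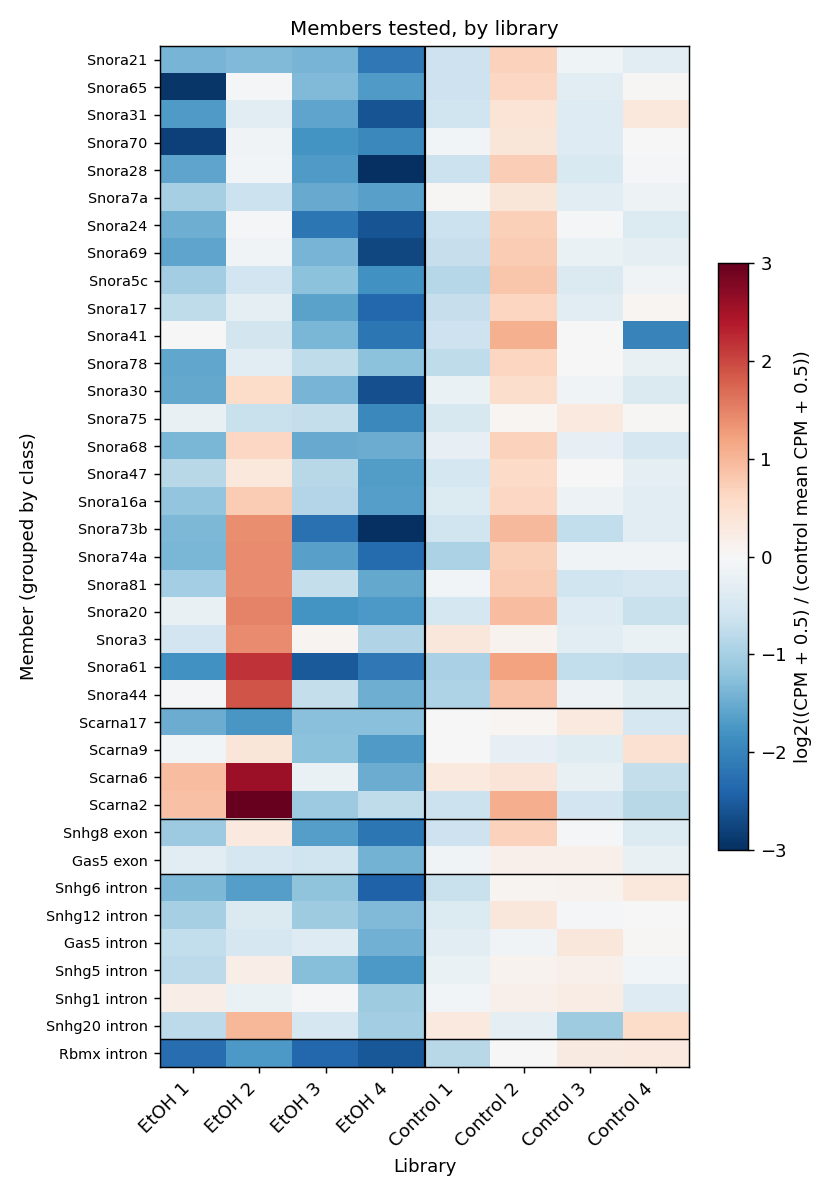
Level of the 37 tested members in each library, as log2 of CPM plus 0.5 over the control mean plus 0.5, with the 4 EtOH columns left of the 4 control columns and lines between classes; colours saturate at 3 and -3. EtOH libraries 1, 3 and 4 are mostly blue, while EtOH library 2 ranges from blue for Rbmx introns and Scarna17 to deep red for Scarna2 and Scarna6.

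Among the H/ACA snoRNAs, Snora21 was called. In human it guides pseudouridylation of the large ribosomal subunit RNA. Its level was 4.02, 4.26, 4.02 and 2.20 CPM in EtOH libraries, against 7.31, 18.9, 10.5 and 9.06 CPM in control libraries, with no overlap. It averaged 3.63 ± 0.957 CPM in EtOH libraries and 11.4 ± 5.14 CPM in control libraries (SD, n = 4 each), a log2 fold change of -1.65 (SE 0.40, edgeR adjusted p = 0.0489). These levels rest on 13 to 29 reads in EtOH libraries and 30 to 75 reads in control libraries. Control library 2 was the highest, and without it the control mean was 8.96 ± 1.61 CPM (SD, n = 3).

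Of the other 23 H/ACA snoRNAs tested, 10 had an unadjusted p below 0.05, all 10 lower, against 7.24% of all features. Snora7a, carried in an intron of Rpl32, was the nearest to the threshold. It had 2.35, 3.14, 1.51 and 1.35 CPM in EtOH libraries, against 5.36, 6.81, 3.97 and 4.66 CPM in control libraries. These do not overlap, and the log2 fold change was -1.32 (SE 0.38, edgeR adjusted p = 0.0561). Snora31, in Tpt1, had a log2 fold change of -1.52 (SE 0.52, edgeR adjusted p = 0.0805), with EtOH library 2 at 5.16 CPM inside the control range of 4.14 to 8.82 CPM. Without EtOH library 2, edgeR's adjusted p was 0.0367 for Snora7a and 0.0196 for Snora31, and both were called lower.

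The most abundant H/ACA snoRNAs did not pass the test with all libraries, and EtOH library 2 stood high in each. Snora81 had 11.1, 61.9, 13.7 and 7.62 CPM in EtOH libraries, against 21.4, 39.1, 14.95 and 16.05 CPM in control libraries (log2 fold change 0.04, SE 0.62, edgeR adjusted p = 0.978), and without EtOH library 2 its log2 fold change was -1.16. Snora16a had 10.7, 42.4, 13.2 and 7.62 CPM in EtOH libraries, against 18.5, 38.8, 22.2 and 19.9 CPM in control libraries (log2 fold change -0.43, SE 0.53, edgeR adjusted p = 0.647). In both, 1 EtOH library lay above all controls and the lowest 3 EtOH libraries lay below all controls. Snora74a, known as U19, had 6.92, 50.7, 5.70 and 3.39 CPM in EtOH libraries, against 9.50, 31.0, 17.3 and 17.3 CPM in control libraries (log2 fold change -0.18, SE 0.73, edgeR adjusted p = 0.919). Without EtOH library 2 its EtOH mean was 5.34 ± 1.80 CPM (SD, n = 3) and edgeR's adjusted p was 0.0352.

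Snora44 was among the few with a fitted value above 0. It had 5.40, 21.8, 3.18 and 1.69 CPM in EtOH libraries, against 2.68, 10.3, 4.91 and 4.14 CPM in control libraries (log2 fold change 0.51, SE 0.68, edgeR adjusted p = 0.681). The groups overlap, and without EtOH library 2 the log2 fold change was -0.75. Snora20 had 12.7, 43.3, 4.02 and 4.23 CPM in EtOH libraries, against 10.2, 29.2, 11.4 and 9.32 CPM in control libraries, which overlap. Snora73b, of the U17 family needed for ribosomal RNA cleavage, had 1.66, 14.1, 0.67 and 0.169 CPM in EtOH libraries, against 3.17, 10.3, 2.80 and 3.88 CPM in control libraries. Again 3 EtOH libraries lay below all controls and EtOH library 2 above them. With all libraries Snora73b had an edgeR adjusted p of 0.867, and without EtOH library 2 it was called lower (adjusted p = 0.0379).

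Over the 28 tested H/ACA snoRNAs and scaRNAs, the level in EtOH library 2 was above the mean of the other 3 EtOH libraries in 27, with a median ratio of 4.15 and a range of 0.708 (Scarna17) to 28.9 (Snora61). Control library 2 showed a smaller rise of the same kind over the other controls, above 1 in 27 of 28 with a median ratio of 2.06. For the 5 longest RNAs, of 170 bases or more in GENCODE M21, the median ratio in EtOH library 2 was 9.50, against 3.70 for the 23 shorter ones. The longer ones ranged from 5.73 to 16.95, inside the range of 0.708 to 28.9 of the shorter ones. The counted entry can be shorter than the GENCODE one, as for Scarna2, with 61 bases against 414. The cause of the rise in library 2 was not tested.

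The summed level of the 36 H/ACA snoRNAs was 113, 425, 103 and 61.6 CPM in EtOH libraries, against 184, 433, 218 and 222 CPM in control libraries. Library 2 was the highest of each group. The means were 176 ± 168 CPM in EtOH libraries and 264 ± 114 CPM in control libraries (SD, n = 4 each). Without library 2 of either group they were 92.5 ± 27.1 CPM in EtOH libraries and 208 ± 21.1 CPM in control libraries (SD, n = 3 each). The direction of this sum turned with the scaling: the log2 ratio of EtOH to control means was -0.59 here, -0.14 with library size alone and 0.15 with piRNA cluster totals.

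**Figure D2:**
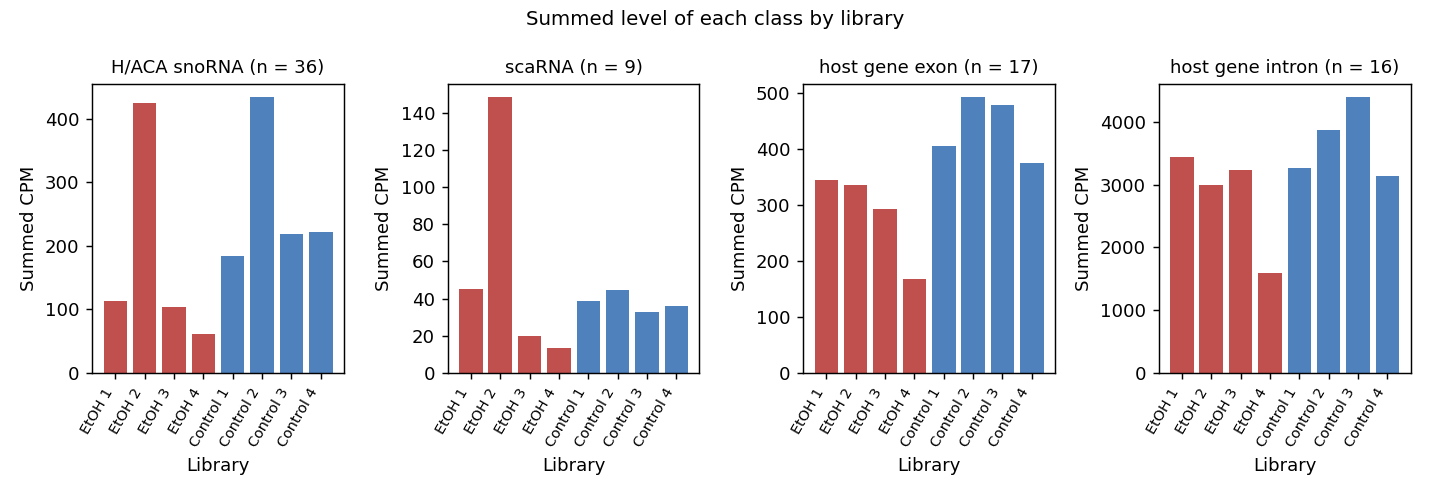
Summed CPM of each class in each library, EtOH libraries in red left of control libraries in blue, 1 bar a library, with axes from 0 that differ between panels. EtOH library 2 is the tallest EtOH bar for H/ACA snoRNAs (425 CPM) and scaRNAs (149 CPM), and for host gene exons all 4 EtOH bars, up to 345 CPM, stay below the lowest control bar of 374 CPM. Gas5 exons alone make up most of each host exon bar, with 154 to 329 CPM in EtOH libraries and 355 to 460 CPM in control libraries.

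The genes that carry the H/ACA snoRNAs differ in kind. Ribosomal protein genes carry 11 of the 36, and 7 of these were tested. Their median log2 fold change was -1.32, with 6 of 7 below 0, the exception being Snora3. Snhg genes carry 7, of which 6 were tested, with a median of -0.39 and 4 below 0. The 16 in other genes, 10 of them tested, had a median of -0.86 with 8 below 0. These medians are descriptions of few members, and their differences were not tested.

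Scarna17 was the one scaRNA called. It is of the C/D type in human. Its level was 2.49, 2.02, 3.02 and 3.05 CPM in EtOH libraries, against 8.04, 8.32, 9.81 and 5.44 CPM in control libraries. The groups do not overlap, and EtOH library 2 was the lowest of all 8. Scarna17 averaged 2.64 ± 0.488 CPM in EtOH libraries and 7.90 ± 1.82 CPM in control libraries (SD, n = 4 each), a log2 fold change of -1.57 (SE 0.35, edgeR adjusted p = 0.0489), on 9 to 18 reads in EtOH libraries and 21 to 42 in control libraries.

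The scaRNAs did not move as a class: of 4 tested, 2 had fitted values above 0 and 2 below. Their summed level was 45.3, 149, 19.8 and 13.0 CPM in EtOH libraries, against 38.5, 44.4, 32.9 and 35.7 CPM in control libraries, so EtOH libraries lay on both sides of the controls. The log2 ratio of the means was 0.58, and 1.46 with piRNA cluster totals. Scarna2, which in human guides methylation of the U2 spliceosomal RNA, had 7.89, 58.3, 1.68 and 2.20 CPM in EtOH libraries, against 2.44, 9.33, 2.57 and 2.07 CPM in control libraries. Its log2 fold change was 2.08 (SE 0.96, edgeR adjusted p = 0.171), the highest of all tested members, and -0.13 without EtOH library 2. Scarna2 was called higher with no filter on low counts (edgeR adjusted p = 0.0039), without EtOH library 3, and in EtOH libraries 1 and 2 alone, where Scarna6 was called higher too. Scarna6 had 20.2, 64.0, 9.05 and 3.39 CPM in EtOH libraries, against 12.9, 13.9, 8.88 and 6.21 CPM in control libraries (log2 fold change 1.198, SE 0.69, edgeR adjusted p = 0.269). Without EtOH library 2 its log2 fold change was -0.047. Scarna9, which also targets U2 in human, had 12.3, 17.1, 5.36 and 3.73 CPM in EtOH libraries, against 13.1, 11.1, 10.05 and 18.4 CPM in control libraries, which overlap (log2 fold change -0.46, SE 0.47, edgeR adjusted p = 0.569). For 6 of the 45 snoRNAs and scaRNAs, the RefSeq entry is shorter than 80 bases. For Scarna2 it has 61 bases, against 414 in GENCODE, so these counts may cover a fragment of the gene.

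**Figure D3:**
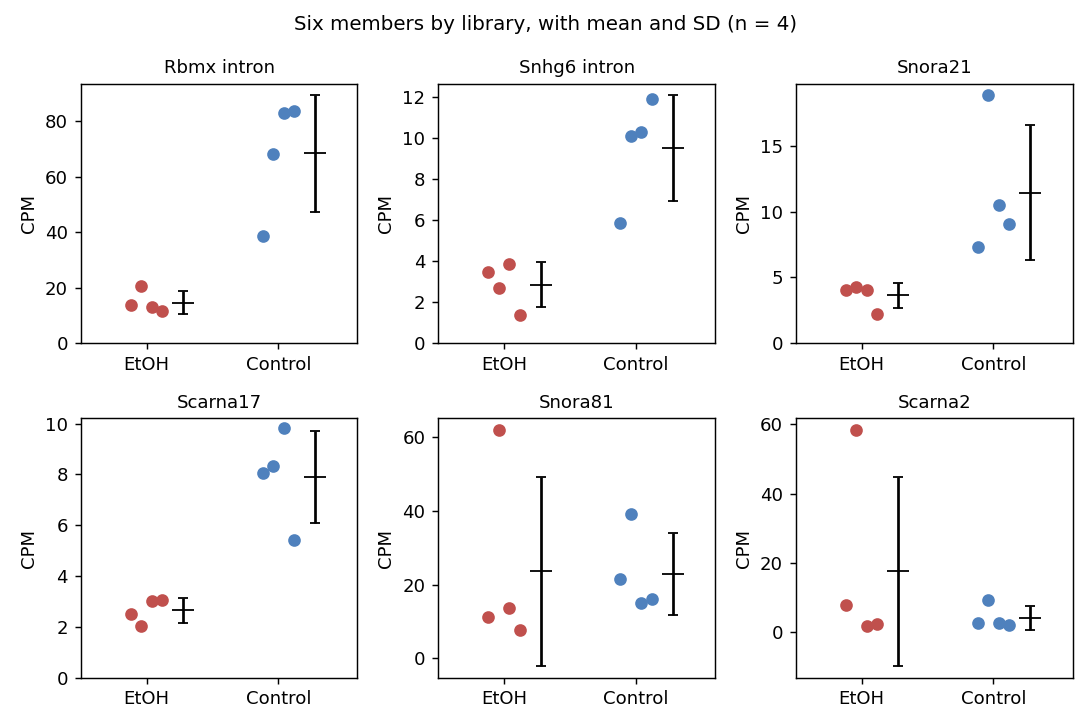
CPM of 6 members in each library, EtOH libraries in red left of control libraries in blue, with the mean and SD of 4 libraries beside each group and axes that differ between panels. Rbmx introns, Snhg6 introns, Snora21 and Scarna17 separate the groups, while Snora81 and Scarna2 have EtOH library 2 far above the other EtOH libraries, at 61.9 and 58.3 CPM.

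For host genes, nearly all counts lay in introns or exons that hold an annotated small RNA. Whether these reads are the snoRNA itself was not tested. Of 45 intron features placed on GENCODE M21 transcripts, Rbmx included, 30 hold an annotated small RNA, and these 30 took 99.97% of the 128046 intron counts. Of 52 exon features, 2 hold one, and these took 97.2% of the 13769 exon counts. They are the exon numbered 0 of Gas5, which spans Snord78, Mir5117 and other small RNAs in GENCODE, and that of Snhg8, which holds Snora24. The table's numbering, from 0, was taken to follow position along the chromosome on both strands, which is an inference from the counts. For hosts on the minus strand, Rbmx and Snhg6 among them, this order put 99.34% of 4680 intron counts in introns with a small RNA, and the order along the transcript put 8.632% there. Which snoRNA lies in which intron of these hosts, and the 99.97% above, rest on that choice. A snoRNA's own feature and its intron can differ widely. Snord22 had 154 to 792 reads a library under its own name, and the Snhg1 intron that holds it had 0 to 7, while Snora16a had 45 to 189 reads, and its Snhg12 intron 0 to 3. The 5 C/D snoRNAs that the host results turn on are printed here, with the C box (TGATGA in the first 20 bases) and the D box (CTGA in the last 15 bases) in capitals where these letters occur. Snord61 lies in Rbmx (chromosome X, minus strand), Snord87 in Snhg6 (chromosome 1, minus strand), Gm24452 and Gm24453 in Snhg1 (chromosome 19, plus strand) and Gm25789 in Gas5 (chromosome 1, plus strand).
Snord61: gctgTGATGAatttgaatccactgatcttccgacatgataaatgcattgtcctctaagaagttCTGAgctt
Snord87: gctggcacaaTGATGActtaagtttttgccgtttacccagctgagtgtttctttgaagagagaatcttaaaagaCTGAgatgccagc
Gm24452: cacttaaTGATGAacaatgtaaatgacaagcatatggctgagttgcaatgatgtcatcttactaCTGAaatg
Gm24453: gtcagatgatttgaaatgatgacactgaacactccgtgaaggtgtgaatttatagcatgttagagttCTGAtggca
Gm25789: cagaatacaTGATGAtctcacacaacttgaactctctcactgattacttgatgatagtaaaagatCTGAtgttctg

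The introns of Rbmx had the lowest log2 fold change of all members. Rbmx is an X-linked gene for an RNA-binding protein that takes part in splicing. The introns had 13.6, 20.4, 12.9 and 11.3 CPM in EtOH libraries, against 38.5, 68.3, 83.2 and 83.9 CPM in control libraries. The highest EtOH library lay below the lowest control library. The mean was 14.6 ± 4.02 CPM in EtOH libraries and 68.5 ± 21.2 CPM in control libraries (SD, n = 4 each), a log2 fold change of -2.23 (SE 0.41, edgeR adjusted p = 0.0489). The intron numbered 6, which holds Snord61, took most of it, with means of 14.1 ± 4.18 CPM in EtOH libraries and 68.4 ± 21.2 CPM in control libraries (SD, n = 4 each). Snord61 also has a feature under its own name, at 3.05, 4.04, 3.02 and 1.02 CPM in EtOH libraries, against 6.57, 11.6, 5.14 and 10.6 CPM in control libraries. These too do not overlap (log2 fold change -1.61, SE 0.44, edgeR adjusted p = 0.0506). The exons of Rbmx were too low to be tested, at 2.08, 2.02, 1.51 and 2.54 CPM in EtOH libraries, against 0.974, 0.756, 0.935 and 2.33 CPM in control libraries, which overlap.

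Snhg6 introns had 3.46, 2.69, 3.85 and 1.35 CPM in EtOH libraries, against 5.84, 10.1, 10.3 and 11.9 CPM in control libraries. The groups do not overlap. The mean was 2.84 ± 1.10 CPM in EtOH libraries and 9.53 ± 2.59 CPM in control libraries (SD, n = 4 each), a log2 fold change of -1.73 (SE 0.40, edgeR adjusted p = 0.0489). The intron that holds Snord87 took nearly all of these counts. The feature of Snord87 itself was far higher, with 109, 119, 183 and 107 CPM in EtOH libraries, against 178, 208, 249 and 215 CPM in control libraries. These overlap by 1 EtOH library, and the log2 fold change was -0.72 (SE 0.38, edgeR adjusted p = 0.231).

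Gas5, a growth-arrest RNA that binds the glucocorticoid receptor, lay below all control libraries in all 4 EtOH libraries but did not pass the test. Its introns had 742, 867, 950 and 454 CPM in EtOH libraries, against 972, 1152, 1563 and 1263 CPM in control libraries (log2 fold change -0.72, SE 0.41, edgeR adjusted p = 0.259). Its exons had 329, 294, 275 and 154 CPM in EtOH libraries, against 387, 460, 457 and 355 CPM in control libraries (log2 fold change -0.66, SE 0.40, edgeR adjusted p = 0.289). Neither overlaps between groups. The exon numbered 0, with the small RNAs, held nearly all exon counts, and the other Gas5 exons had 0 to 6 reads a library.

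All 3 introns of Gas5 had fitted values below 0, of differing size. The intron that holds Snord47 had 117, 96.0, 98.4 and 60.6 CPM in EtOH libraries, against 225, 306, 276 and 294 CPM in control libraries. This is a log2 fold change of -1.55 (SE 0.37, edgeR adjusted p = 0.0525 over the 10234 features tested with introns and exons unsummed, of which 0.137% were called lower). Of the 48 member features tested that way, 0 were called. With edgeR p-values left unadjusted, 12 were lower and 0 higher at the 0.05 level, against 9.15% and 17.9% of all. Its neighbour with Snord80 had 31.0, 47.6, 33.0 and 16.8 CPM in EtOH libraries, against 55.8, 79.2, 85.0 and 91.6 CPM in control libraries. Both stand below every control library. The Gm25789 intron, the most abundant of the 3, overlapped between groups, with means of 628 ± 191 CPM in EtOH libraries and 884 ± 225 CPM in control libraries (SD, n = 4 each) and a log2 fold change of -0.49. As a share of Gas5 intron counts, the Snord47 intron held 12.6% ± 2.45 in EtOH libraries and 22.7% ± 3.70 in control libraries (SD, n = 4 each). The Gm25789 intron held 83.2% ± 2.51 in EtOH libraries and 71.0% ± 4.37 in control libraries (SD, n = 4 each). By exact permutation over the 70 ways to split the libraries (two-sided), each share gave p = 0.02857, the lowest value possible, and 0.07143 after Benjamini-Hochberg adjustment for the 10 intron shares of Gas5 and Snhg1. Shares of a gene's introns add up to a fixed whole, so the lower Snord47 share and the higher Gm25789 share are not separate results.

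Snhg1 introns were the most abundant host feature and overlapped between groups. They had 2618, 1989, 2227 and 1096 CPM in EtOH libraries, against 2172, 2567, 2687 and 1742 CPM in control libraries (log2 fold change -0.21, SE 0.41, edgeR adjusted p = 0.804). The intron that holds Gm24452 took most of this, with means of 1248 ± 539 CPM in EtOH libraries and 1466 ± 339 CPM in control libraries (SD, n = 4 each). The intron with Gm24453 had 11.2, 19.3, 15.1 and 11.9 CPM in EtOH libraries, against 29.2, 50.9, 56.1 and 63.4 CPM in control libraries. The groups do not overlap, and the log2 fold change was -1.75 (SE 0.42, edgeR adjusted p = 0.0525, unsummed features). Next to it, the intron with Gm22744 had 38.5, 44.9, 24.5 and 22.4 CPM in EtOH libraries, against 59.4, 75.1, 73.8 and 66.5 CPM in control libraries, again with no overlap (log2 fold change -1.02, SE 0.41, edgeR adjusted p = 0.136). The one with Gm25894 was high in EtOH library 2, at 707 CPM, against 70.8 to 215 CPM in the other EtOH libraries and 153 to 242 CPM in control libraries. As shares of Snhg1 intron counts, the Gm24453 intron held 0.790% ± 0.295 in EtOH libraries and 2.26% ± 0.974 in control libraries (SD, n = 4 each). The Gm22744 intron held 1.72% ± 0.529 in EtOH libraries and 3.06% ± 0.515 in control libraries (SD, n = 4 each). Both had an exact permutation p of 0.02857 and an adjusted p of 0.07143.

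**Figure D4:**
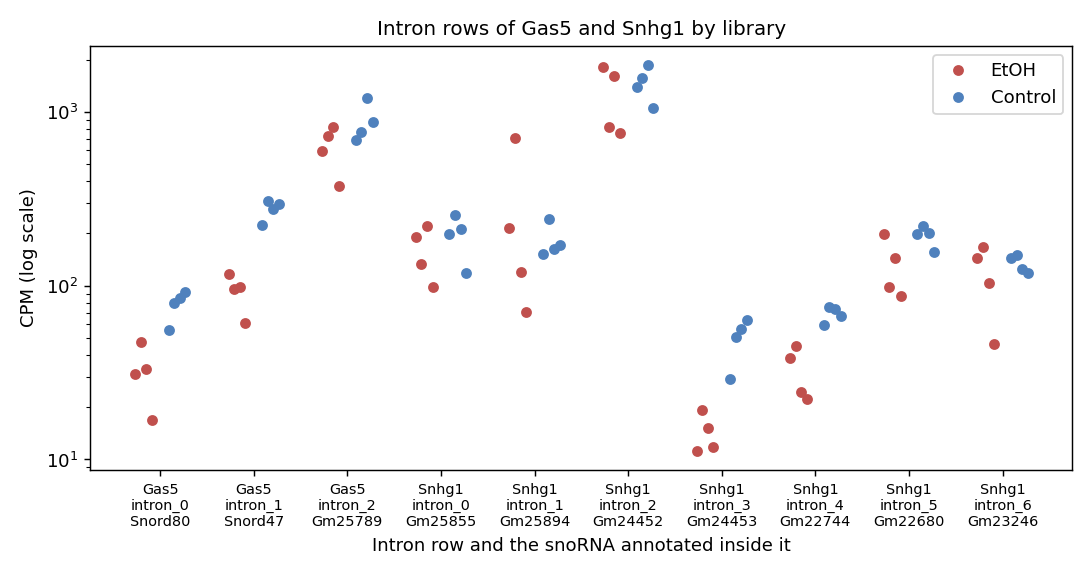
CPM (log scale) of each Gas5 and Snhg1 intron feature in each library, EtOH libraries in red left of control libraries in blue, with the snoRNA annotated inside the intron named under it. The introns with Snord80, Snord47, Gm24453 and Gm22744 have all EtOH points below all control points, while the other 6 overlap.

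Snhg5 introns hold Snord50a and Snord50b. They had 54.4, 108, 38.5 and 28.3 CPM in EtOH libraries, against 81.3, 100, 105 and 89.0 CPM in control libraries (log2 fold change -0.71, SE 0.45, edgeR adjusted p = 0.319). EtOH library 2 was the highest of all 8 and the other 3 EtOH libraries were the lowest. The Snord50a intron had 87 to 249 reads a library and the Snord50b intron 80 to 234, and whether reads are shared between them was not tested. Snhg5 exons stayed low, with 1.19 to 2.24 CPM in EtOH libraries and 1.01 to 2.59 CPM in control libraries.

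Snhg12 shows a host intron and its snoRNAs counted side by side. Its introns, which hold Snora16a, Snora44, Snora61 and Snord99, had 9.69, 14.6, 9.22 and 7.62 CPM in EtOH libraries, against 14.9, 25.2, 19.2 and 19.9 CPM in control libraries. The groups do not overlap (log2 fold change -0.95, SE 0.36, edgeR adjusted p = 0.105). They were called lower without EtOH library 2 (edgeR adjusted p = 0.0432). EtOH library 2 exceeded the other EtOH libraries less here than under the snoRNAs' own names. Snora61 under its own name had 1.38, 29.6, 0.67 and 1.02 CPM in EtOH libraries, against 2.92, 14.9, 3.505 and 3.36 CPM in control libraries. Its edgeR adjusted p was 0.871 with all libraries and 0.0379, called lower, without EtOH library 2. The intron that holds Snora61 had 1.11, 2.02, 1.84 and 1.86 CPM in EtOH libraries, against 2.44, 6.55, 3.27 and 5.18 CPM in control libraries.

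Snhg8 exons had 6.92, 18.8, 4.53 and 3.05 CPM in EtOH libraries, against 9.74, 25.2, 14.95 and 11.4 CPM in control libraries (log2 fold change -0.89, SE 0.54, edgeR adjusted p = 0.292). Without EtOH library 2 they were called lower, with a log2 fold change of -1.74 (edgeR adjusted p = 0.0375). Snora24, which lies inside, had 36, 63, 17 and 12 reads in EtOH libraries, against 38, 97, 60 and 42 in control libraries. Its edgeR adjusted p was 0.145 with all libraries and 0.0206, called lower, without EtOH library 2. The reads of Snora24 would make up 63.0% to 75% of the Snhg8 reads in EtOH libraries and 93.8% to 97% in control libraries, if each was counted under both names. The counting rule is not given in the sources used here. The Snhg8 count exceeded that of Snora24 by 14, 21, 10 and 6 reads in EtOH libraries, and by 2, 3, 4 and 2 in control libraries.

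Host exons away from small RNAs had few counts. The 50 host exon features with no annotated small RNA, from 14 genes, had together 59, 88, 61 and 52 reads in EtOH libraries, against 37, 29, 27 and 30 in control libraries. On the CPM scale the groups overlap, with 8.17, 19.7, 10.2 and 8.81 CPM in EtOH libraries, against 9.01, 7.31, 6.31 and 7.76 CPM in control libraries.

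C/D snoRNAs named Snord, the class most like these, also had mostly lower fitted levels in EtOH libraries. Of 60 tested, 7 were called lower and 0 higher, and the median log2 fold change was -0.77, with 55 below 0 and 23 with all EtOH libraries below all controls. Of the 24 H/ACA snoRNAs tested, 1 was called lower, the median was -0.90, and 2 had no overlap. Over all 13808 features tested, 0.84% were called lower and 48.7% had a log2 fold change below 0. In 5.77% of them all EtOH libraries lay below all controls. Among 6424 exon features, 14 were called lower and 122 had all EtOH libraries below all controls. The summed Snord level was 3289, 5776, 2657 and 1445 CPM in EtOH libraries, against 4983, 5970, 5567 and 4782 CPM in control libraries. The difference between the classes was not tested.

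Genes for the proteins that work with these RNAs were read over exon fragments, which say little about protein. Of 7 H/ACA ribonucleoprotein genes, Nop10 alone was tested and it was called higher. It had 4.29, 19.3, 3.02 and 6.44 CPM in EtOH libraries, against 1.71, 1.51, 2.10 and 2.33 CPM in control libraries (log2 fold change 2.08, SE 0.57, edgeR adjusted p = 0.0499). The groups do not overlap, and EtOH library 2 was the highest. Exon features as a whole were shifted upward by 0.86 in their median, and 631 of 6424 were called higher, against 4.71% of all features. In the other 5 lists 0 genes passed. Of the genes with counts, 1 of 9 Cajal body and telomerase genes was tested, and 2 of 6 C/D ribonucleoprotein genes. So were 1 of 12 stand-alone pseudouridine synthases, 3 of 12 genes of snoRNA 3′ processing and decay, and 6 of 8 of nonsense-mediated decay. At an unadjusted p below 0.05, edgeR gave 3 of these 13 genes as higher and 0 as lower, a share near the 21.9% of all features that were higher at that level, and 2901 of 6424 exon features were. The 3 with their values were Nhp2l1 (log2 fold change 1.24, SE 0.56), a C/D snoRNA protein, Parn (1.23, SE 0.49), a deadenylase that trims H/ACA RNAs, and Upf1 (1.38, SE 0.47), the helicase of nonsense-mediated decay. Their edgeR adjusted p-values were 0.159, 0.116 and 0.0797.

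Summed epididymal and general epithelial markers were higher in every EtOH library than in any control library, and sums for the other cell types overlapped. Of 4 epididymal genes tested, 3 were called higher, Crisp1, Adam7 and Cd52, and of 4 general epithelial genes Krt8, Krt18 and Epcam were called higher. Each had an edgeR adjusted p of 0.0489, and 4.71% of all features and 631 of 6424 exon features were called higher. Adam7 overlapped between groups. It had 1344 CPM in EtOH library 2, 23.5 to 50.3 CPM in the other EtOH libraries and 2.85 to 23.9 CPM in control libraries. The summed general epithelial level was 62.0 to 400 CPM in EtOH libraries and 18.5 to 47.6 CPM in control libraries. Of 4 globin genes tested, Hba-a1 and Hba-a2 were called lower (edgeR adjusted p = 0.0489 each), against 0.84% of all features. Hba-a1 and Hba-a2 had nearly the same counts in each library, so they may not be separate results. The summed level of the 5 red blood cell genes with counts was 1.84 to 17.1 CPM in EtOH libraries and 16.6 to 34.5 CPM in control libraries. Hbb-b1 had no counts under that name and may be missing from the annotation. Leukocyte genes summed to 2.51 to 13.7 CPM in EtOH libraries and 3.41 to 9.08 CPM in control libraries, and smooth muscle genes to 20.6 to 69.9 CPM in EtOH libraries and 44.8 to 131 CPM in control libraries. Sertoli and Leydig cell genes summed to 3.90 to 15.7 CPM in EtOH libraries and 2.44 to 11.4 CPM in control libraries. The part of these cells in the snoRNA levels was not tested.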

How the data were processed

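Small RNA of 8 sperm libraries was sequenced, with RNA extracted with guanidinium thiocyanate and a reducing agent and read 1 alone used, per the labels. The submitters' processing notes name cutadapt, an adapter trimmer. The deposited values are whole-number counts per annotated feature with no normalization. Not given in the sources used here are the aligner, genome build, annotation, use of strand and treatment of multi-mapping reads. Reads of overlapping or near-identical features, such as a snoRNA and its host, may be shared or split.

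Exon and intron counts were summed by symbol and type and all other features kept. EtOH-Cessation was compared with Control-Cessation (groups from the treatment label, columns matched by title) with edgeR 4.0.16 in R 4.3.3: filterByExpr defaults (minimum count 10, minimum total 15), trimmed mean of M values and the quasi-likelihood F test, with no covariate. Standard errors are the log2 fold change over the square root of F. Host intron shares were compared by exact permutation. Introns were placed on GENCODE M21, with 39 of 45 snoRNAs and scaRNAs matched by RefSeq accession and 6 by symbol. Sequences are from GENCODE M21 (GRCm38). Alternatives were other scalings, DESeq2 1.42.0, limma voom 3.58.1, other filters, unsummed features, each library left out, and EtOH libraries of either identifier form alone.

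The members and lists were chosen with earlier results of these data known. Members named with values were those called, the 3 most abundant of each class, the 3 with the lowest p in each direction, Rbmx introns and Gas5. Snora7a, Snora20, Snora24, Snora31, Snora61, Snora73b, Snora78, Snhg12 and the single introns were added after their values were seen. On simulated data for this comparison (13808 features, 200 changed), edgeR called 8% of those changed 2-fold, 74% of those changed 4-fold and 100% of those changed 8- or 16-fold, and 6 of its 147 calls were false. The simulated spread followed the fitted trend over all features, with no library set apart as EtOH library 2 is. These rates may therefore not hold for the members.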

Additional observations from a re-analysis of the deposited data

Results flagged for a closer look

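Among the 17 named members, 6 values stood far from the other libraries of their group by Dixon's criterion for 4 samples, which picks about 1 in 20 groups by chance. In EtOH library 2 these were Scarna2 at 58.3 CPM, Snora16a at 42.4 CPM, Snora74a at 50.7 CPM and Snora81 at 61.9 CPM, each the highest of its group. In EtOH library 4, Snora21 was the lowest at 2.20 CPM. In control library 2, Scarna2 was the highest at 9.33 CPM.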

How the results depend on the processing

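The number of members called was 4, and of all features 767. Members and all features called were 0 and 6 with size factors by median of ratios, 0 and 3 with library size alone, 0 and 1 with piRNA cluster totals, 8 and 2645 with DESeq2, 0 and 3 with limma voom, 2 (Rbmx introns lower, Scarna2 higher) and 1902 with no filter, 0 and 6 with a mean count of at least 10, and 0 and 19 with unsummed features. With EtOH libraries of the M identifier form alone they were 6 (4 lower, Scarna2 and Scarna6 higher) and 2808, and of the EM form 0 and 15. Leaving out 1 library gave 0 to 18 members and 4 to 2960 features. For 0 calls, members at an unadjusted p below 0.05 numbered 3 (piRNA totals) to 32 (EM form) in the lower direction. Over all features these were 396 of 13808 with piRNA totals and 1418 of 15380 with the EM form. The cause was not tested.

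Rbmx introns, Scarna17, Snhg6 introns and Snora21 kept their direction under all 17 alternatives. They passed the threshold in 5 (Rbmx) or 4 of 17, among them DESeq2 and the fits without EtOH library 2 or 3. Adjusted p ranged from 2.13e-06 to 0.247 for Rbmx introns, from 0.000866 to 0.337 for Scarna17, from 0.000747 to 0.247 for Snhg6 introns and from 0.00132 to 0.290 for Snora21. Library size alone and piRNA totals moved the median log2 fold change of all features to 0.25 and 0.32, and the members' median minus it was -0.69 and -0.61 (-0.88 in the reported fit). That difference vanished with no filter, at 0.045, where 47 of 79 members had a log2 fold change below 0. It was -0.28 with EtOH libraries of the M identifier form alone and -1.84 with the EM form alone.

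Among named members, directions turned only for some that did not pass the test. With piRNA totals, log2 fold changes were 0.24 for Scarna9, 0.084 for Snhg1 introns, 0.26 for Snora16a and 0.71 for Snora74a. With library size alone they were 0.042 for Snhg1 introns and 0.33 for Snora74a. With the M form alone they were 0.0051 for Scarna9 and 0.40 for Snora74a, and with the EM form -1.17 for Scarna2, -0.89 for Scarna6, -1.28 for Snora44 and -1.21 for Snora81. Snora81 had -0.35 with limma voom and -0.079 with a mean count of at least 10. Leaving out 1 library gave -0.13 to 2.77 for Scarna2, -0.047 to 1.49 for Scarna6, -0.75 to 0.92 for Snora44, -1.89 to 0.087 for Snora74a and -1.16 to 0.34 for Snora81. Of summed levels, log2 ratios with 1 library left out ran from -1.51 to -0.24 for H/ACA snoRNAs and from -0.54 to 0.91 for scaRNAs. With piRNA totals they were -1.68 for Rbmx introns, -0.23 for host exons, 1.46 for scaRNAs and 0.15 for H/ACA snoRNAs, whose direction turned, and with library size alone -0.14 for H/ACA snoRNAs. No paired analysis was possible because no label links an EtOH library to a control library. Low counts limit the precision of most members, and 42 were too low to test.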
